A study of Mus musculus with 2 samples.

Results

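The genes described here are *B3gat1*, *B3gat2*, *B3gat3* and *Chst10*, which encode the glucuronyltransferases and the sulfotransferase around the HNK-1 glycan. They are 4 of the 14425 genes listed in single-cell RNA data from mouse spiral ganglion neurons, the neurons that carry sound signals from the cochlea to the brain, and all 4 are in the table. They were selected by name, and *B3gat1* also because its level was known to differ between the libraries. The differences of *B3gat1* are therefore given as a description with no test. Both groups were mice that carried Runx1-CreER, a Cre driver switched on by tamoxifen, and the tdTomato reporter Ai14, and were given tamoxifen on postnatal day 1, with cochlear tissue of both sexes taken on postnatal days 27 to 29. The control, iCON, was Runx1-CreER/+; Ai14/+, and the conditional knockout, iCKO, was Runx1-CreER/Runx1F; Ai14/+, in which a floxed allele stands opposite the driver allele. Cells were sorted for tdTomato, so each library holds cells in which the reporter was on, and the tamoxifen, driver allele and reporter were shared by the controls. The number of mice in each library is not given in the sources used here.

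HNK-1 is a sulfated sugar cap that neurons and glia add to cell adhesion molecules, extracellular matrix proteins and glycolipids. A glucuronyltransferase adds glucuronic acid to a galactose at the end of a glycan chain, and a sulfotransferase then adds the sulfate that completes the epitope. In nervous tissue *B3gat1* encodes GlcAT-P, the main glucuronyltransferase of this step, and *B3gat2* encodes its relative GlcAT-S. *Chst10* encodes the HNK-1 sulfotransferase. *B3gat3* encodes GlcAT-I, which works mainly on another product, the linker that joins glycosaminoglycan chains to proteoglycans. The same epitope is known as CD57 on human natural killer cells. In the spiral ganglion, type I neurons contact inner hair cells and are divided into subtypes. *Calb2*, which encodes the calcium-binding protein calretinin, is highest in Ia neurons, and *Lypd1*, which encodes a membrane-anchored Ly6 family protein, marks Ic neurons. *Runx1* encodes the transcription factor that the floxed allele targets.

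The sequence upstream of *B3gat1* is shown because the mice were made to lose a DNA-binding factor and *B3gat1* was the member with the largest difference between the libraries. In GRCm38 *B3gat1* lies at chr9:26733728-26763101 on the plus strand. The RefSeq start used (GRCm38.p6) is at position 26751562 of that chromosome, 17.834 kb inside the gene's first annotated base. It coincides with the start of at least 1 of 6 annotated *B3gat1* transcripts. *Glb1l2* overlaps the gene on the minus strand and had 10 UMIs in each library, and whether the counting used strand is not given in the sources used here. The 260 bases shown, chr9:26751312-26751571 on the plus strand, hold the 250 bases before that start in lower case and the first 10 transcribed bases in capitals.
B3gat1 promoter: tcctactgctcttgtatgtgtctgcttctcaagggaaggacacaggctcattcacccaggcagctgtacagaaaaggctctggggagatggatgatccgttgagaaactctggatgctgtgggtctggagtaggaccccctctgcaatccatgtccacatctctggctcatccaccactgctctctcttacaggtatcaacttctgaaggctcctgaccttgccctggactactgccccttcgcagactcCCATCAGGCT
The window searched, chr9:26751312-26751611, runs to 50 bases after the start. It holds neither TGTGGT nor TGCGGT, the letters of the usual RUNX sites, on either strand. Of 32851 promoter windows of the same length, 16.8% hold the first, 6.45% the second and 22.4% at least 1 of them. The *B3gat1* window has a G and C content of 54.7% and 3 CG pairs, against medians of 52.7% and 7 over all windows. The windows of *B3gat3* and *Chst10* hold neither motif either, and *B3gat2* was not matched. These are letter matches in a short window and say nothing of where the factor binds.

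The library labelled iCON held 462 cells with a median of 49725.5 UMIs (unique molecular identifiers, which count captured RNA molecules) per cell, and the library labelled iCKO held 407 cells with a median of 33602. No cell barcode occurred in both libraries. Of 6 neuron markers, 5 were detected in at least 90% of cells in each library, and none of the 4 markers of natural killer or T cells was listed. RNA of the targeted gene, *Runx1*, had a level of 0.867 per 10000 UMIs in the iCON and 1.12 in the iCKO library, so its count goes against the labels. A 3′ count cannot show whether the floxed part of a transcript is missing. Below, iCON and iCKO stand for the libraries so labelled, and every direction is one between labels, not between measured *Runx1* levels. Cells with *Xist* and no Y-linked RNA made up 54.5% of iCON and 78.4% of iCKO. Myelin RNA was lower in iCKO: the summed level of 8 glial markers averaged 37.5 (range 0 to 150.5) in iCON and 18.9 (0 to 59.8) in iCKO, and all 8 were lower. With 1 library per genotype no difference between the libraries has a replicate check.

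*B3gat1* RNA was higher in iCKO and was found in more of its cells. In iCON the level per cell, in UMIs per 10000 UMIs, ran from 0 through a median of 0.169 to a highest value of 4.10, with a mean of 0.478 (SD over cells 0.670, 1108 UMIs). In iCKO it ran from 0 through a median of 1.30 to 5.35, with a mean of 1.35 (SD over cells 0.985, 1883 UMIs). The iCKO mean was 2.83 times the iCON mean, and the ratio of summed UMIs had a counting interval of 2.53 to 2.93 times. These 95% intervals cover counting error only, not differences between animals or preparations. After each cell was thinned to 20000 UMIs, *B3gat1* was detected in 42.7% of the 454 thinned iCON cells (38.1 to 47.4), against 82.0% of the 405 in iCKO (77.9 to 85.6). Before thinning the shares were 52.4% and 85.0%, so the deeper library had the lower share. The libraries overlapped: 3 iCKO cells lay above the highest iCON cell, while 42.0% of iCKO cells lay above the level that 90% of iCON cells did not exceed. On the scale of the log2 ratio of means with a pseudocount of 0.05 on each mean, *B3gat1* stood at 1.41, rank 3 of the 8318 genes with a level of at least 0.1. Of those genes, 1.29% had a log2 ratio of 0.5 or more and 2.95% had one of -0.5 or less. *B3gat1* was the only member past either bound, and since the choice of members used that contrast, nothing is read from the count.

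*B3gat1* RNA was scarcely found in cells with type II markers, the unmyelinated neurons that contact outer hair cells. In the 29 iCON cells in the range of type II markers (3 or more summed UMIs of *Prph*, *Th* and *Plk5* per 10000), *B3gat1* had 1 UMI at a median depth of 30412. In the 5 iCKO cells of that range it had 0 UMIs, which allows a level of up to 0.285. *B3gat3* was at 1.87 in the same iCON cells, close to its level elsewhere. A low *B3gat1* level was not particular to these cells: over summed UMIs it was 0.0112 (0.000282 to 0.0621) here and 0.0409 (0.0272 to 0.0591) in *Lypd1*-rich iCON cells with under 10 *Calb2*. Cells in this range were 6.28% of iCON and 1.23% of iCKO, and without them the *B3gat1* means were 0.509 and 1.37.

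*B3gat2* was near absent. It had 11 UMIs in 10 of the 462 iCON cells and 5 UMIs in 5 of the 407 iCKO cells, and its mean level was 0.00537 and 0.00405. It did not reach the minimum level, and no difference was detectable at this depth. The gene (chr1:23761753-23849158, plus strand) overlaps *Smap1* on the opposite strand.

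*B3gat3* (chr19:8920374-8927236, plus strand) was detected in nearly all neurons. After thinning, 98.9% of iCON and 99.3% of iCKO cells held a UMI. In iCON the level ran from 0 through a median of 1.94 to 4.04, with a mean of 1.96 (SD over cells 0.726). In iCKO the median was 2.44 and the highest value 4.93, with a mean of 2.50 (SD over cells 0.892). The log2 ratio was 0.34, with a counting interval of 0.27 to 0.40 for summed UMIs, and 3.82% of the tested genes had a ratio at least as high. The 2 libraries overlapped over most of their range, and 33.7% of iCKO cells lay above the level that 90% of iCON cells did not exceed. In every *Lypd1* and *Calb2* range the iCKO mean was higher, by log2 ratios from 0.14 to 0.60. The lowest of these was in the *Calb2* range of 50 to 100, where the counting interval of -0.05 to 0.27 includes 0, and the highest was in the few cells with 1 to 10 *Lypd1*, with an interval of 0.28 to 0.82.

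*Chst10*, the sulfotransferase gene that acts after *B3gat1*, had a low level in both libraries, and no difference over all cells was detectable at this depth. The gene lies at chr1:38863867-38898161 on the minus strand and overlaps *Gm37707* on the other. It had 250 UMIs in iCON and 182 in iCKO, with means of 0.115 (SD over cells 0.156) and 0.128 (SD over cells 0.193). The median cell of each library had no *Chst10* UMI, and the highest cell had 0.791 in iCON and 1.16 in iCKO. The log2 ratio was 0.11, and the counting interval of -0.06 to 0.50 for summed UMIs includes 0. After thinning, *Chst10* was detected in 19.4% (15.8 to 23.3) of the cells in iCON, against 24.0% (19.9 to 28.4) in iCKO. In cells with 10 or more *Lypd1* UMIs per 10000 its level was 0.136 in iCON and 0.140 in iCKO. In cells with under 1 it was 0.0947 and 0.121. By *Calb2*, the counting interval of the log2 ratio lay above 0 in 1 of 4 ranges, the 10 to 50 range, where the means were 0.105 and 0.171. In the range of 100 or more the means were 0.0946 and 0.132, with an interval of -0.06 to 1.01.

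**Figure D1:**
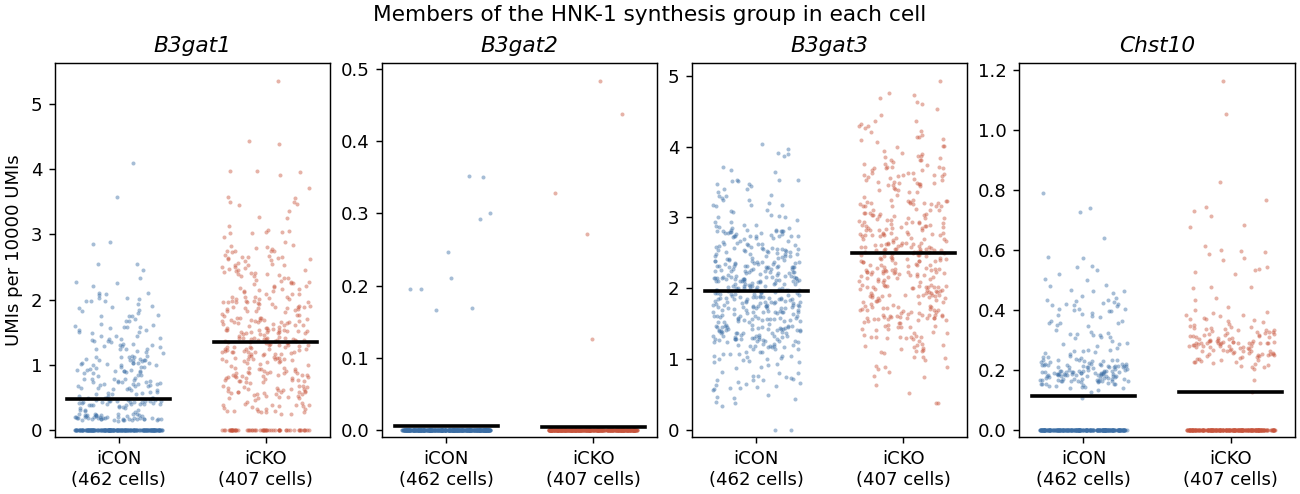
Level of each member in each cell, in UMIs per 10000 UMIs on linear axes that differ between panels, for the 462 cells labelled iCON (blue) and the 407 cells labelled iCKO (red). Points are cells, spread sideways at random, and black lines are means. For B3gat1 the mean is 0.478 in iCON and 1.35 in iCKO, while the Chst10 means are 0.115 and 0.128 and nearly all cells have no B3gat2 UMI.

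Cells with RNA of both HNK-1 steps were counted, a share that follows in part from *B3gat1* detection, the value on which the gene was selected. After thinning, both *B3gat1* and *Chst10* had a UMI in 31 of 454 iCON cells, or 6.83% (4.69 to 9.55), and in 84 of 405 iCKO cells, or 20.7% (16.9 to 25.02). The product of the separate shares of *B3gat1* and *Chst10* was 8.28% in iCON and 19.6% in iCKO, inside both intervals. Among cells with 10 or more *Lypd1* the shares were 3.93% and 20%. Among cells with 100 or more *Calb2* they were 7.14% (2.67 to 14.9) and 25.1% (19.6 to 31.3). Within iCON, *Chst10* was detected in 15.98% of *B3gat1*-positive cells (11.1 to 21.9) and 21.9% of *B3gat1*-negative cells (17.0 to 27.5). Within iCKO the shares were 25.3% (20.7 to 30.3) and 17.8% (9.84 to 28.5). Over all cells these intervals overlap in both libraries. They overlap too among cells with 10 or more *Lypd1*, at 25.9% (11.1 to 46.3) and 20.5% (14.4 to 27.9) in iCON. The iCKO shares there were 30.5% (20.8 to 41.6) and 20.9% (10.0 to 36.0). Only among iCON cells with 100 or more *Calb2* do the intervals not overlap. There *Chst10* was detected in 7.79% (2.91 to 16.2) of *B3gat1*-positive cells and in 57.1% (18.4 to 90.1) of the 7 *B3gat1*-negative cells. In iCKO the order was the other way, at 25.6% (19.97 to 31.8) and at 0 of 4 cells (0 to 60.2). A low-count gene such as *Chst10* is missed in many cells that express it, so these shares count cells with a UMI.

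The mean level of *B3gat1* was higher in each *Calb2* range than in the one below it, in both libraries. In iCON the mean was 0.0385 in the 172 cells with under 10 *Calb2* UMIs per 10000, 0.293 in the 133 cells with 10 to 50, 0.697 in the 71 cells with 50 to 100 and 1.46 in the 86 cells with 100 or more. In iCKO the means of the same ranges were 0.267 (38 cells), 0.715 (62 cells), 1.03 (80 cells) and 1.82 (227 cells). The ranges are cuts through a continuous level and not cell types, and 48 iCON and 44 iCKO cells lay within 20% of the 50 boundary. Across thinned cells the Spearman correlation of *B3gat1* with *Calb2* was 0.69 in iCON and 0.52 in iCKO, between counts that share a library and a depth. Within cells with 100 or more *Calb2* it was 0.03 in iCON and 0.13 in iCKO. The detected share of thinned cells was 8.14% in the lowest and 91.7% in the highest *Calb2* range of iCON, and 23.7% and 98.2% in iCKO.

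**Figure D2:**
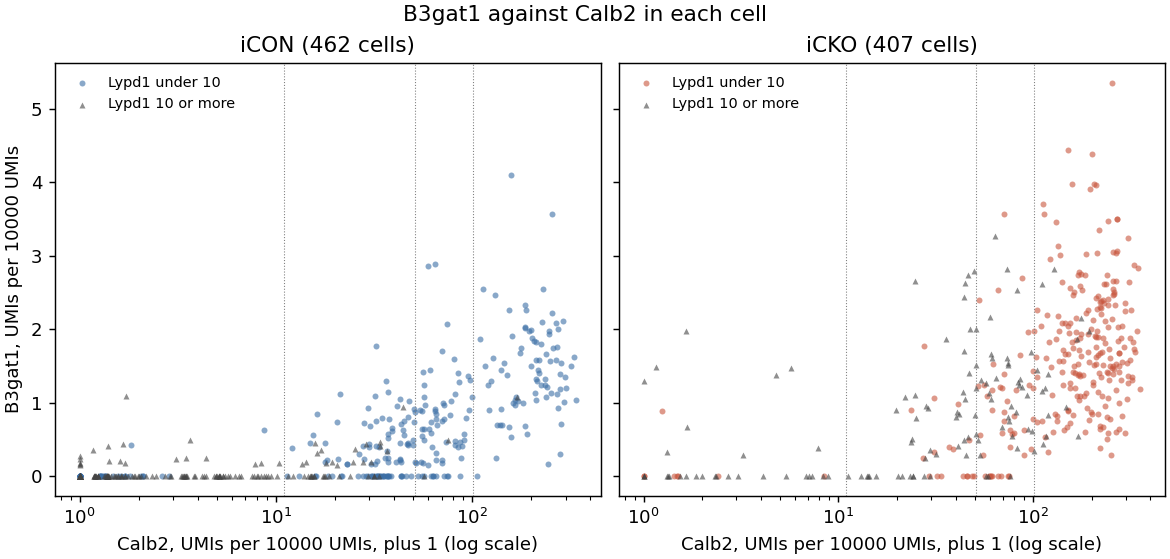
B3gat1 against Calb2 in each cell, both in UMIs per 10000 UMIs, with Calb2 plus 1 on a log axis; the left panel is iCON and the right panel iCKO. Triangles are cells with 10 or more Lypd1, circles all other cells, and dotted lines mark Calb2 at 10, 50 and 100. In iCON 177 of the 180 triangles lie below 50 Calb2 and all are at B3gat1 levels of at most 1.08, while in iCKO 75 of 126 lie below 50 and the highest B3gat1 level is 3.27.

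The ratio between the libraries was smaller in each higher *Calb2* range. The iCKO mean was 6.93 times the iCON mean under 10 (counting interval of summed UMIs 5.05 to 13.8), 2.44 times in the 10 to 50 range (1.93 to 3.03), 1.48 times in the 50 to 100 range (1.26 to 1.80) and 1.24 times at 100 or more (1.13 to 1.37). Under 10 *Calb2* the counts were few, at 31 UMIs in 21 of 172 iCON cells and 39 UMIs in 10 of 38 iCKO cells. In the highest range the log2 ratio of *B3gat1* was 0.31, and 7.03% of 8152 genes had one at least as high. It was 0.12 in cells of this range with low myelin RNA, and 0.71 when the range was redefined as the upper tertile of *Calb2* in each library. The difference in mean level, iCKO minus iCON, had no such order, at 0.228, 0.422, 0.333 and 0.356 UMIs per 10000 from the lowest range to the highest. Most *B3gat1* RNA came from *Calb2*-rich cells in both libraries. Cells with 100 or more *Calb2* were 18.6% of iCON cells and gave 59.8% of its *B3gat1* UMIs, and they were 55.8% of iCKO cells and gave 76.4%. The overall ratio therefore held 2 measured components, more cells in the high *Calb2* range and a higher level within ranges. When the iCON ranges were weighted to the *Calb2* make-up of iCKO, the iCON mean became 0.9998 against 1.35 in iCKO, a log2 ratio of 0.41. *Calb2* itself differed between the libraries, with means of 58.1 and 133, so the ranges may not hold the same neurons in each.

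Among the single *Lypd1* and *Calb2* ranges, the highest ratio of means was in cells rich in *Lypd1*, with a counting interval that overlaps that of the lowest *Calb2* range. In the 180 iCON cells with 10 or more *Lypd1* UMIs per 10000, *B3gat1* had a median of 0, a highest value of 1.08 and a mean of 0.0702 (SD over cells 0.173, 69 UMIs). In the 126 iCKO cells of this range it had a median of 0.768, a highest value of 3.27 and a mean of 0.869 (SD over cells 0.831, 373 UMIs). The iCKO mean was 12.4 times the iCON mean, with a counting interval of 8.73 to 14.8 for summed UMIs. *Calb2* also differed in these cells, at 7.39 in iCON and 47.7 in iCKO, and its part in the ratio was not tested. Thinned cells with a *B3gat1* UMI were 15.2% in iCON (10.2 to 21.3) and 65.6% in iCKO (56.6 to 73.9). In iCKO, 47 of the 126 cells lay above the highest of the 180 iCON cells, although the ranges overlapped. The log2 ratio was 2.93 in these cells, where *B3gat3* stood at 0.32 and *Chst10* at 0.03. These cells gave 6.23% of *B3gat1* UMIs in iCON and 19.8% in iCKO.

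The ratio was smaller in cells with little *Lypd1*, while the difference in level was close to that in *Lypd1*-rich cells. In cells with under 1 *Lypd1* UMI per 10000 *B3gat1* averaged 0.785 in iCON (256 cells) against 1.56 in iCKO (261 cells), 1.99 times. In the few cells with 1 to 10 it was 0.275 (26 cells) and 1.57 (20 cells), 5.72 times. The difference in mean level, iCKO minus iCON, was 0.780, 1.30 and 0.799 UMIs per 10000 from the lowest *Lypd1* range to the highest. Without regard to *Calb2*, *B3gat1* was thus lower in *Lypd1*-rich cells in both libraries, with Spearman correlations with *Lypd1* of -0.51 in iCON and -0.32 in iCKO. The step between the lowest and highest *Lypd1* range was from 0.785 to 0.0702 in iCON and from 1.56 to 0.869 in iCKO. Few cells lay near the boundary of 10: 2 iCON and 8 iCKO cells were within 20% of it.

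In 1 *Calb2* range that held cells of both kinds, the libraries differed by a larger ratio in *Lypd1*-rich than in *Lypd1*-poor cells. With *Calb2* at 10 to 50 and *Lypd1* at 10 or more, the *B3gat1* mean was 0.148 over the 37 cells of iCON and 0.840 over the 45 of iCKO, 5.66 times, with a counting interval of 3.45 to 8.20. With *Calb2* at 10 to 50 and *Lypd1* under 1, the means were 0.383 in 78 iCON cells and 0.365 in 15 iCKO cells, 0.954 times, with an interval of 0.527 to 1.60. These intervals do not overlap. *Calb2* itself was not equal inside this range: its means were 20.9 in iCON and 31.5 in iCKO in the *Lypd1*-rich cells, 1.51 times, and 33.5 and 36.9 in the *Lypd1*-poor cells, 1.10 times, and its part in the contrast was not tested. Under 10 *Calb2*, *Lypd1*-rich cells had means of 0.0399 (140 cells) and 0.308 (30 cells), 7.73 times, with an interval of 4.74 to 14.0, and *Lypd1*-poor cells had 0.0323 (32 cells) and 0.110 (8 cells), with an interval of 2.38 to 62.5 that overlaps it. Those *Lypd1*-poor cells can hardly be compared, since 29 of the 32 in iCON and 5 of the 8 in iCKO were in the type II range and all 7 *B3gat1* UMIs in iCKO came from 1 cell. In the 50 to 100 range the *Lypd1*-rich cells were 2 in iCON and 37 in iCKO, too few in iCON to compare, and the *Lypd1*-poor cells had means of 0.745 and 0.928, with an interval of 0.959 to 1.57 times. At 100 or more *Calb2* the *Lypd1*-poor cells had means of 1.46 (85 cells) and 1.83 (201 cells). Within iCKO the order by *Lypd1* turned in the *Calb2* range of 10 to 50, where the level over summed UMIs was 0.829 (0.690 to 0.989) in *Lypd1*-rich and 0.359 (0.205 to 0.583) in *Lypd1*-poor cells. At 50 to 100 it was 1.14 (0.963 to 1.34) and 0.885 (0.719 to 1.08), with intervals that overlap. At 100 or more the order was the other way. There the level was 1.47 (1.15 to 1.85) in 14 *Lypd1*-rich and 1.81 (1.72 to 1.92) in 201 *Lypd1*-poor cells, and these intervals overlap too. Among *Lypd1*-rich cells, *B3gat1* still correlated with *Calb2*, at 0.32 in iCON and 0.44 in iCKO. Weighting iCON to the *Lypd1* and *Calb2* make-up of iCKO gave means of 0.919 and 1.33, a log2 ratio of 0.51. It left out 12 iCKO cells and rests in part on the iCON ranges of 2 cells and 1 cell.

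**Figure D3:**
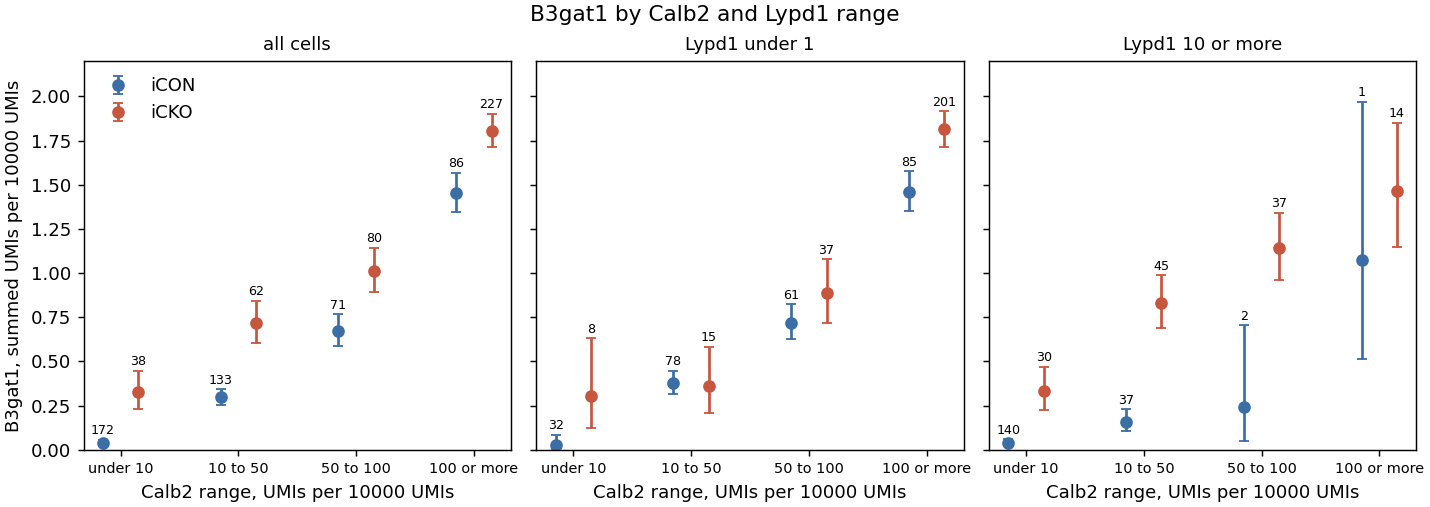
B3gat1 level, as summed UMIs per 10000 UMIs, by Calb2 range in all cells, in cells with under 1 Lypd1 and in cells with 10 or more Lypd1, for iCON (blue) and iCKO (red). Bars are exact 95% Poisson counting intervals and the numbers are cells. In the Calb2 range of 10 to 50 the libraries overlap in the Lypd1-poor cells and are apart in the Lypd1-rich cells.

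Sex-linked and myelin RNA, which differed between the libraries, were set beside *B3gat1*. In cells with *Xist* the means were 0.464 in iCON and 1.39 in iCKO, and in cells with Y-linked RNA they were 0.493 and 1.25. In *Lypd1*-rich cells they were 0.0563 and 0.914 with *Xist*, and 0.0831 and 0.687 with Y-linked RNA. In cells with low summed RNA of 4 myelin genes (under 3 per 10000; 22.7% of iCON and 37.8% of iCKO) the means were 0.655 and 1.26, and in the rest 0.426 and 1.40. In *Lypd1*-rich cells the corresponding means were 0.0954 and 0.832 at low and 0.0654 and 0.886 at high myelin RNA. The iCKO mean was the higher in every one of these subsets.

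Over all cells of each library, *B3gat1* was lower in cells with a *Runx1* UMI than in cells without one. At 20000 UMIs per cell, iCON cells with a *Runx1* UMI had a *B3gat1* mean of 0.354 (309 cells) and those without 0.741 (145 cells), a log2 ratio of -0.97 with a counting interval of -1.34 to -0.79. In iCKO the means were 1.27 (309 cells) and 1.61 (96 cells), a log2 ratio of -0.33 with an interval of -0.54 to -0.15. The iCKO direction turned in cells with Y-linked RNA, to 0.32, and was 0.040 in cells with low myelin RNA. Both iCKO means lay above both iCON means, so a *B3gat1* difference between the libraries was present with and without a *Runx1* UMI. At the depth deposited, the detected cells had 0.371 in iCON and 1.30 in iCKO, and the undetected cells 0.925 and 1.60. A cell without a *Runx1* UMI is not a cell without *Runx1* RNA, and detection of the transcript does not tell which cells lost the gene product.

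Within *Calb2* ranges the split by *Runx1* varied. At 100 or more *Calb2*, iCON cells with and without a *Runx1* UMI had *B3gat1* means of 1.39 (19 cells) and 1.38 (65 cells). The iCKO cells of that range had 1.73 (155 cells) and 1.91 (72 cells), a log2 ratio of -0.14 with an interval of -0.36 to 0.07. In the 50 to 100 range the iCON means were 0.708 (60 cells) and 1.05 (11 cells), a log2 ratio of -0.53 with an interval of -1.24 to 0.17. At the depth deposited the ratio in that range was -1.23 (-1.94 to -0.46), with 4 cells that lacked a *Runx1* UMI. In the 10 to 50 range the iCON means were 0.293 (111 cells) and 0.406 (16 cells), a log2 ratio of -0.41 (-1.35 to 0.51), and at the depth deposited it was -0.77 (-2.32 to -0.21), again with 4 cells that lacked a *Runx1* UMI. Only 3 thinned iCKO cells of the 10 to 50 range lacked a *Runx1* UMI. Under 10 *Calb2* the iCKO means were 0.280 (25 cells) and 0.385 (13 cells), a log2 ratio of -0.40 with an interval of -1.73 to 0.87, and at the depth deposited it was 1.32 (-0.92 to 1.71). Under 10 *Calb2* the order in iCON turned: the mean was 0.0672 in 119 cells with a *Runx1* UMI, and no *B3gat1* UMI was found in 53 cells without one, which allows a level of up to 0.0283. At the depth deposited the means were 0.0446 and 0.0126, with an interval of the log2 ratio of -0.38 to 7.55 that includes 0. Of those 53 cells, 29 were the iCON cells of the type II range, none of which held a *Runx1* UMI. With equal weight for the 4 ranges the log2 ratio was -0.19 in iCON and -0.15 in iCKO. In iCON most high-*Calb2* cells lacked a *Runx1* UMI, and in iCKO most held one.

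**Figure D4:**
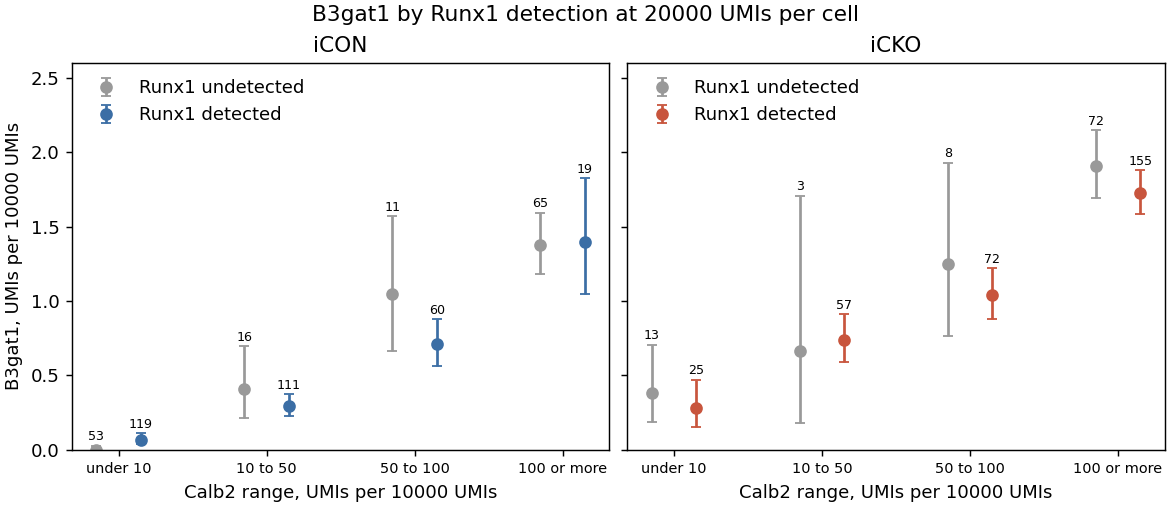
B3gat1 level at 20000 UMIs per cell, in UMIs per 10000 UMIs, by Calb2 range for cells with a Runx1 UMI (coloured) and without (grey); the left panel is iCON and the right panel iCKO. Points are means, bars are exact 95% Poisson counting intervals and the numbers are cells. At 100 or more Calb2 the iCON means are 1.39 and 1.38 and the iCKO means 1.73 and 1.91.

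The genes whose pattern across cells was most like that of *B3gat1* were found among the 3561 genes whose mean reached 0.5 per 10000, by the lower of the Spearman correlations in the 2 libraries (454 and 405 thinned cells). *Calb2* was the first, at 0.69 in iCON and 0.52 in iCKO. *Mdga1*, which encodes a membrane-anchored regulator of synaptic adhesion, followed at 0.45 in both, with levels of 3.60 in iCON and 7.42 in iCKO. Next were *Zfp804a* (0.49 and 0.38), *Slc17a7* (0.39 and 0.34), which encodes the vesicular glutamate transporter VGLUT1, and *Cd24a* (0.59 and 0.34), which encodes a glycosylated surface protein. The remaining genes were *Nefm* (0.48 and 0.34), which encodes the medium neurofilament, *Pygl* (0.39 and 0.31), which encodes glycogen phosphorylase, and *Paqr4* (0.42 and 0.31). These correlations describe thinned cells that share a library and differ in subtype.

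The other genes of HNK-1 synthesis and its carriers were compared between the libraries as a list. The list of 69 genes (donor supply, acceptor chains, linker, related sulfotransferases, competing sialic caps and carrier proteins) had 65 in the table, of which 37 reached the minimum level. None of the 37 had a log2 ratio of 0.5 or more, against 1.29% of all genes tested, and 4 had one of -0.5 or less, against 2.95%. At that background, a list of this size with no gene past the upper bound is not a result about the list. Of those 4, 2 were the compact myelin genes *Pmp22* (-0.69) and *Mbp* (-0.65), listed in the glial group. Their difference went with the lower glial RNA of iCKO. The median over the 37 was 0.01, against -0.02 for all genes tested, and it was also 0.01 over the 35 outside the glial group.

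Among the enzymes that supply donors, *Papss1*, which makes the sulfate donor PAPS, had levels of 0.609 and 0.412 in iCON and iCKO, for a log2 ratio of -0.51. *Ugp2*, which makes UDP-glucose, was at 0.677 and 0.667, and *Ugdh*, which oxidizes UDP-glucose to the glucuronic acid donor, at 0.264 and 0.211. The donor genes had a median of -0.25. The genes that build N-acetyllactosamine chains, the acceptor on which *B3gat1* acts, had a median of -0.05 over 7 genes. *Mgat3*, which adds the bisecting branch of N-glycans, was at 0.523 and 0.540. For O-mannose glycans *Pomgnt1* was at 0.335 and 0.309, and for glycolipids *Ugcg*, the glucosylceramide synthase, at 0.738 and 0.829. *Fam20b*, a kinase of the proteoglycan linker that *B3gat3* also serves, was at 0.674 and 0.813, a log2 ratio of 0.25.

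Of the sulfotransferases related to *Chst10*, *Chst8* was at 0.557 in iCON and 0.698 in iCKO (log2 ratio 0.30), *Chst11* was at 0.120 and 0.169 (0.37), and *Chst12* was at 0.152 and 0.117 (-0.27). *Chst8* encodes a sulfotransferase of terminal N-acetylgalactosamine, and the others act on chondroitin. *St3gal6*, an enzyme that caps chains with sialic acid, was at 0.420 and 0.367. The neuronal carriers had a median of 0.03 over 11 genes. *Cntn1*, which encodes the adhesion molecule contactin, was at 2.34 and 2.49. *Ncam1*, which encodes the best known HNK-1 carrier, was at 1.94 and 1.77, a log2 ratio of -0.13. *Itgb1*, which encodes an integrin subunit found in many cell types, was at 1.45 and 0.989, a log2 ratio of -0.53, and the part of glial RNA in this value was not tested.

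**Figure D5:**
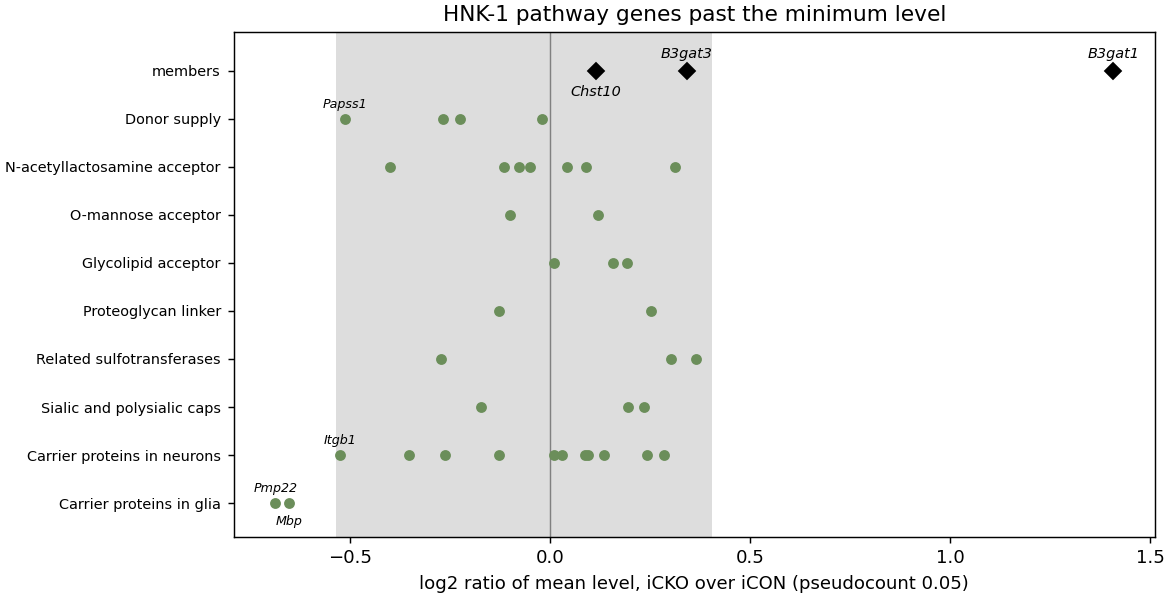
Log2 ratio of the mean level in iCKO over iCON, with a pseudocount of 0.05, for the 3 members (black) and the 37 other pathway genes (green) past the minimum level, by group. The grey band holds the central 95% of all 8318 genes. B3gat1 at 1.41 stands to the right of the band and of all other genes shown. The myelin genes Pmp22 and Mbp stand to the left of the band.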

How the data were processed

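Values in the deposited table are natural logs, ln(1 + CPM), one per cell for 14425 genes, as the values themselves show, and the deposited cell annotation gives the library of each barcode as a text label, another kind of value. Cell Ranger, Seurat and mm10 are named in the submitters' processing notes. Linear values divided by each cell's smallest step gave whole UMIs for 100% of values (within 1e-06). Levels are means over cells of UMIs per 10000, and ratios add a pseudocount of 0.05 to each mean. Fold values use means without it. Intervals are exact Poisson, or Clopper-Pearson for shares, at 95%, and those of ratios refer to summed UMIs. They cover counting error only. Shares used cells thinned to 20000 UMIs, leaving out 8 iCON and 2 iCKO cells. Each group is 1 library, so no difference between groups was tested. Scrublet in scanpy 1.11.5 called 1 iCON and 4 iCKO cells doublets, which were kept. The code for ratios was checked on simulated counts. Named genes were the members, the genes dividing the cells, the highest gene of each pathway group and those past a log2 ratio of 0.5, and the 8 genes most like *B3gat1*. *Ugdh*, *Ncam1* and the sulfotransferases were added after their values were seen. The pathway list leaves out 1 gene that is not reported here. Members and lists were chosen with earlier results of these data known. Locations are from GENCODE M21 and promoters from RefSeq.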

Additional observations from a re-analysis of the deposited data

How the results depend on the processing

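The log2 ratios of *B3gat1*, its relatives and the pathway list were recomputed under 99 alternatives over 9 results, of which 81 moved a value by less than its counting error and 18 by more. No ratio past 0.5 changed sign. The overall *B3gat1* ratio became 0.92 with a pseudocount of 0.5, 1.25 in cells with Y-linked RNA, 0.90 in cells with low and 1.61 in cells with high myelin RNA, and 0.58 with equal weight for the *Calb2* ranges. Weighting iCON to the *Calb2* make-up of iCKO gave 0.41, and to its *Lypd1* and *Calb2* make-up 0.51, both chosen after seeing the data. In *Lypd1*-rich cells the ratio was 3.45 with a pseudocount of 0.01, 1.26 with 0.5 and 2.47 in Y-linked cells. In *Calb2*-rich cells it was 0.12 at low myelin RNA and 0.71 with the *Calb2*-rich cells redefined as the upper tertile of each library. The *Runx1* split in iCON became -0.54 with a pseudocount of 0.5, -0.64 at low myelin RNA, -1.27 without the type II range and -0.19 with equal *Calb2* weights, and in iCKO 0.32 in Y-linked cells and 0.040 at low myelin RNA. The cause of these changes was not tested. The *B3gat3*, *Chst10*, *B3gat2* and pathway values stayed within counting error under the alternatives run. No paired analysis was possible because each genotype has 1 library, so no library could be left out either. Depth limits *B3gat2* and *Chst10*, which most cells lacked.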

Other observations

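The genes that flank *B3gat1* on the chromosome had small ratios. To the left, *Sept7* (log2 ratio -0.15), *Herpud2* (0.05) and *Rp9* (0.13) were the nearest genes past the minimum level, at distances of 1425 to 4264 kb. To the right, *Acad8* (-0.03), *Thyn1* (-0.20) and *Vps26b* (0.18) lay 211 to 245 kb away. In iCON, thinned cells with a *B3gat1* UMI were 36.4% of cells with *Xist* (30.4 to 42.8) and 50.2% of cells with Y-linked RNA (43.1 to 57.4), and the thinned mean levels were 0.431 and 0.538. In iCKO the shares stood in the other order, at 84.3% (79.8 to 88.1) and 74.1% (63.1 to 83.2), with intervals that overlap.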
